A study of Oryza sativa with 7 samples.

Results

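Of the 37858 rice loci counted in leaf, root, young panicle and seed, 14 met a rule for expression in leaf and young panicle with little signal in root and seed. They were chosen by their measured level in all 7 libraries. The level was the sum of counts over the exon bins of a locus (a bin is a stretch of annotated exon), given as CPM (counts per 1000000 counts of the library). The rule asked for 10 CPM or more in each leaf and panicle library and under 2 CPM in the root library and in each seed library. A cap of 300 loci in the rule was not reached. All libraries came from the cultivar Ilmi, with no treatment named in the labels: leaf at 14 days (2 libraries), root at 14 days (1 library), flowers before pollination taken from panicles of 0.5 to 1.5 cm (2 libraries), and seed at 20 to 30 days after pollination, with 21 days in the sample names (2 libraries). The labels do not say whether the libraries of a tissue came from separate plants, so every p-value below rests on library-to-library spread alone, and that spread may be technical. In bulk tissue, fewer cells of a type and less RNA per cell cannot be told apart.

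Leaf and panicle are both shoot organs. A young rice panicle consists of branches and spikelets at an early stage, whose lemma and palea are leaf-like organs that turn green later, while the leaf of a seedling is already a photosynthetic organ. Root grows in the dark, and a ripening grain consists mostly of starch-filled endosperm. The deposited tables give locus IDs without gene names, sequences or functions, and the RefSeq gene table matched none of these 14 IDs, so the loci are described by ID and no role is given to them. For the same reason the tissue labels were not checked against marker genes.

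The pattern was rare under these limits. Of the 8651 loci at 10 CPM or more in all leaf and panicle libraries, 0.162% were under 2 CPM in root and both seed libraries, and 6801 loci reached 10 CPM in every library of all 4 tissues. With the same limits, 32 loci were shared by leaf and root, 32 by panicle and seed, 29 by leaf and seed, 12 by root and seed, and 1 by root and panicle. In 1 tissue alone, 116 loci met the limits for leaf and 42 for panicle. Adding seed to leaf and panicle gave 74 loci, and adding root gave 21. Root had 1 library against 2 for each other tissue. Patterns of the same number of tissues therefore differed in how many libraries had to reach 10 CPM and how many had to stay under 2 CPM. The numbers of loci are descriptions with no test.

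**Figure D1:**
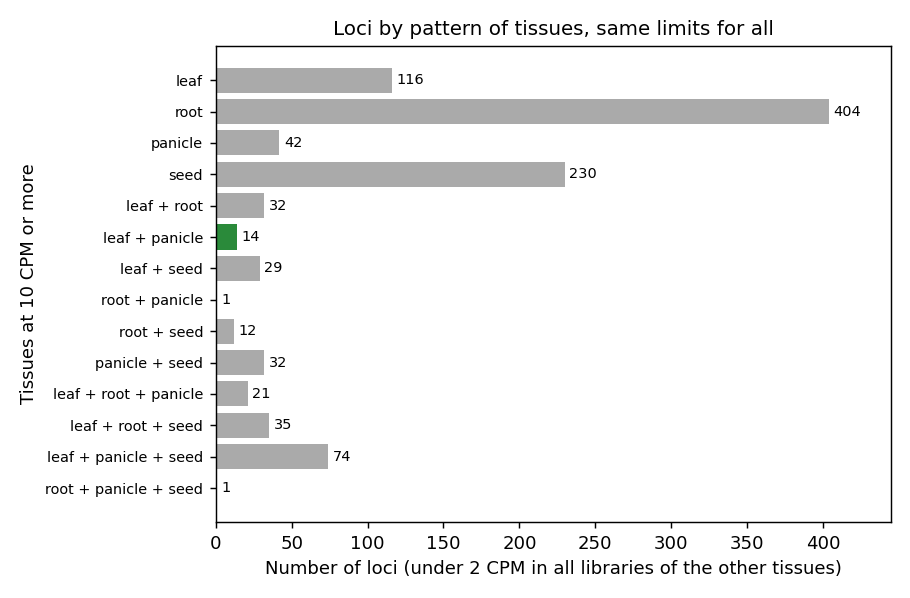
Number of loci (x axis) for each pattern of tissues (y axis), where the named tissues were at 10 CPM or more in all their libraries and the others under 2 CPM in all of theirs. The bar for leaf with panicle holds 14 loci, fewer than leaf with root (32), leaf with seed (29) or panicle with seed (32). It is longer than the bars for root with seed (12) and root with panicle (1).

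Because levels in all 7 libraries chose the members, the contrast of leaf and panicle with root and seed is given as values only. The 14 loci together had 861 and 1356 CPM in the leaf libraries and 658 and 1067 CPM in the panicle libraries. In root they had 105 counts in all, or 5.01 CPM. That was 0.000501% of counts (95% exact Clopper-Pearson interval 0.000410% to 0.000607%, which covers counting error only). The interval takes counts as independent, although reads that span bins are counted more than once, so it may be too narrow. In seed the 14 loci had 11.5 and 6.26 CPM. Single members ran from 10.04 to 352 CPM in leaf, from 10.2 to 271 CPM in panicle, from 0 to 1.67 CPM in root and from 0 to 1.75 CPM in seed. In counts, the lowest member value in leaf or panicle was 202 and the highest in root or seed was 35.

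No member lacked counts in root and both seed libraries at once. Of the 42 member values in root and seed, 7 were 0, and 8 of the 14 members had counts in all 3 of these libraries. A count of 0 allows up to 0.143 CPM in root, 0.168 CPM in seed 1 and 0.250 CPM in seed 2 (3 counts of the library). The lowest leaf or panicle value of a member was between 7.33 and 415 times its highest root or seed value. It was 10 or more times that value in 10 of the 14. The limits of 10 and 2 CPM in the rule set a minimum for this ratio at every member, so it is no separate evidence.

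**Figure D2:**
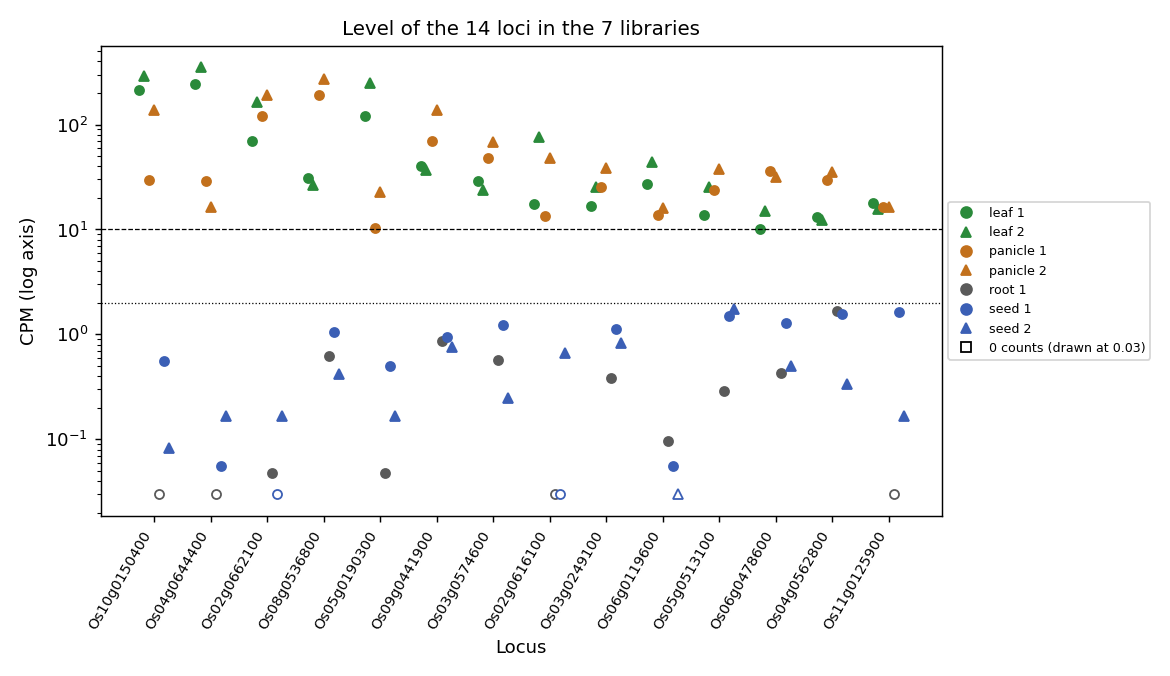
CPM (log axis) of the 14 loci in each library, ordered by mean CPM in leaf and panicle. Circles are library 1 and triangles library 2 of a tissue. Open symbols are values of 0 counts drawn at 0.03, and the lines mark the limits of 10 and 2 CPM. By the rule, all leaf and panicle points lie above the first and all root and seed points below the second.

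Of the members, 6 passed 100 CPM in at least 1 leaf or panicle library. Values and overlaps in this and the following paragraphs are in CPM without other scaling. Lengths were not available, so the order of loci by CPM is one of counts and not of transcripts. Os10g0150400, with 2 bins, had 212 and 290 CPM in leaf, 29.7 and 139 CPM in panicle, no count in root, and 0.560 and 0.0834 CPM in seed. Os04g0644400, a locus of 1 bin, had 242 and 352 CPM in leaf, 29.0 and 16.5 CPM in panicle, no count in root, and 0.0560 and 0.167 CPM in seed. In both loci the leaf libraries lay above the panicle libraries without overlap. In CPM, leaf and panicle libraries did not overlap, in either direction, at 10 members. Among the 8651 loci at 10 CPM or more in leaf and panicle the share was 85.0%, so lack of overlap was common and does not mark the members.

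Os02g0662100, also of 1 bin, had 69.2 and 165 CPM in leaf and 121 and 190 CPM in panicle, so that the tissues overlapped. It had 1 count in root and, in seed, 0 and 2 counts. Os05g0190300, with 2 bins, had 120 and 247 CPM in leaf, 10.2 and 23.0 CPM in panicle, 1 count in root and 9 and 2 counts in seed. Its leaf libraries were the higher ones, and panicle 1 was close to the limit of the rule.

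The other 2 of these 6 loci were higher in panicle. Os08g0536800, with 9 bins, had 31.1 and 26.8 CPM in leaf and 193 and 271 CPM in panicle, and 0.621 CPM in root and 1.06 and 0.417 CPM in seed. Os09g0441900, with 10 bins, had 40.6 and 36.6 CPM in leaf and 69.0 and 137 CPM in panicle, with 0.860 CPM in root and 0.951 and 0.751 CPM in seed. The panicle libraries lay above the leaf libraries in both.

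Another 6 loci stayed under 50 CPM in every library. In Os03g0249100 leaf had 16.8 and 25.2 CPM and panicle 25.7 and 38.2 CPM. In Os05g0513100 leaf had 13.8 and 25.5 CPM and panicle 23.6 and 38.1 CPM. The lower panicle library stood beside the higher leaf library in these loci, with an overlap in Os05g0513100 and none in Os03g0249100. Os06g0119600 had 27.4 and 44.3 CPM in leaf and 13.7 and 15.9 CPM in panicle, and it had only 2, 1 and 0 counts in root, seed 1 and seed 2. Os06g0478600 had 10.04 and 15.2 CPM in leaf and 36.3 and 31.5 CPM in panicle. Leaf was the higher tissue in the former and panicle in the latter, without overlap. Os04g0562800 was likewise higher in panicle, with 13.2 and 12.2 CPM in leaf and 29.6 and 35.4 CPM in panicle. Os11g0125900 had the most even CPM of all members, with 17.7 and 15.7 CPM in leaf and 16.3 and 16.4 CPM in panicle. Its seed libraries were far apart, at 29 and 2 counts, and it had no count in root.

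Of the remaining pair, Os03g0574600 had 29.3 and 23.6 CPM in leaf and 47.8 and 67.7 CPM in panicle, with panicle above leaf. Os02g0616100 had 17.6 and 76.9 CPM in leaf and 13.3 and 47.8 CPM in panicle. Its libraries differed more within a tissue than the tissues differed from each other.

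Near the limits, the choice of members turned on small differences. Just inside the lower limit were leaf 1 of Os06g0478600 at 10.04 CPM and panicle 1 of Os05g0190300 at 10.2 CPM. Just outside were Os08g0460000, at 9.91 CPM in panicle 2, and Os10g0150300, at 9.79 CPM in panicle 1. Os08g0460000 had 356 and 672 CPM in leaf and 46.4 CPM in panicle 1, above the level of every member in leaf. At the upper limit, Os05g0513100 with 1.75 CPM in seed 2 and Os04g0562800 with 1.67 CPM in root were inside. Os02g0733300, at 2.07 CPM in seed 1, and Os08g0442700, at 2.24 CPM in root, were outside. Counting these, 46 loci failed only the lower limit while staying at 5 CPM or more, and 20 failed only the upper limit while staying under 4 CPM. When CPM were computed with the TMM factors described next, 15 loci met the rule, of which 10 were members. Os02g0616100, Os05g0190300 and Os06g0119600 then fell under 10 CPM in panicle 1, at 8.81, 6.77 and 9.05 CPM. Os05g0513100 passed 2 CPM in seed 2, at 2.22 CPM. Os05g0190300 and Os06g0119600 are among the loci called below. When each locus was counted by its largest bin, not by the sum, 28 loci met the rule, of which 8 were members.

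Leaf and panicle were then compared at the members, since the rule set the same minimum in both tissues and did not fix which was higher. The test was edgeR's quasi-likelihood test over 26784 loci in all 7 libraries, with TMM scaling (a factor per library that corrects for differences in composition), and calls needed a change of at least 2-fold and an adjusted p (Benjamini-Hochberg) under 0.05. All 14 members passed the low-count filter, as their leaf and panicle levels make certain. The test called 4 of them, or 28.6%, against 30.0% of all loci tested and 26.1% of the 8651 loci at 10 CPM or more in both tissues. Of the 4, 3 were higher in leaf and 1 in panicle. Leaf was also the higher tissue at 5696 of all 8040 loci called, and at 1772 of the 2259 called among the 8651. As shares of loci tested, calls higher in leaf made up 21.3% of all loci and 20.5% of the 8651. Calls higher in panicle made up 8.75% and 5.63%. The members were therefore called about as often as other loci. Their median log2 fold change of leaf over panicle was 0.40, against 0.08 over all loci tested.

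The TMM factors raise leaf over panicle by 0.91 on the log2 scale compared with CPM, and they decide the direction of some members. Scaled, 9 members had the higher mean in leaf and 5 in panicle; in CPM without factors 6 were higher in leaf and 8 in panicle. Without scaling factors edgeR called 6 members, 3 in each direction, and the called loci over the whole table went from 5696 in leaf and 2344 in panicle to 4045 and 7849. The median over all loci was 0.08 with the factors and -0.75 without them, on the log2 scale. The scaling also changed which tissues overlapped: leaf and panicle libraries were apart in CPM but overlapped with TMM factors in Os09g0441900, Os03g0574600 and Os03g0249100, and the reverse held in Os11g0125900. The 4 loci called with TMM kept their direction under both scalings and with RLE factors.

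Os04g0644400 was 24.6-fold higher in leaf, or 4.62 ± 0.45 (SE) on the log2 scale (edgeR, adjusted p = 0.000820). Os05g0190300 was 20.6-fold higher in leaf, or 4.37 ± 0.62 (SE) on the log2 scale (edgeR, adjusted p = 0.00293). These were called under all 14 alternatives of scaling, tool, filter and libraries, with log2 fold changes from 3.70 to 4.89 and from 3.47 to 4.98. Os08g0536800 was 4.28-fold higher in panicle, or -2.10 ± 0.38 (SE) on the log2 scale of leaf over panicle (edgeR, adjusted p = 0.00757). Its call was lost without leaf 1 and without leaf 2 (edgeR, adjusted p = 0.0636 and 0.0798), with log2 fold changes of -2.20 and -2.00. A fit without 1 library of a pair assumes that the lone library varies like the other tissues. Os06g0119600 was the third locus higher in leaf, 4.55-fold (edgeR, log2 fold change 2.19, SE 0.42, adjusted p = 0.00984). Its call was lost without leaf 2, panicle 1 or panicle 2 (edgeR, adjusted p = 0.0966, 0.0860 and 0.0583), with log2 fold changes of 1.79, 1.90 and 2.21.

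Os10g0150400, 5.50-fold higher in leaf, missed the threshold (edgeR, log2 fold change 2.46, SE 0.77, adjusted p = 0.0505) and passed it in 7 of the 14 alternatives. Without panicle 2, its higher panicle library, the log2 fold change was 3.90 (edgeR, adjusted p = 0.0180), and without panicle 1 it was 1.58. The 3 members with the closest scaled means were Os03g0574600, Os05g0513100 and Os03g0249100, with log2 fold changes of -0.22, 0.25 and 0.30 and standard errors of 0.50, 0.45 and 0.38. A p that misses the threshold does not show that the tissues were alike at these loci. For Os05g0513100, Os03g0249100 and Os02g0662100 the sign depended on the scaling, being higher in leaf with TMM and higher in panicle without. The other 5 members not called were Os02g0616100, Os11g0125900, Os04g0562800, Os06g0478600 and Os09g0441900. Their log2 fold changes were 1.52, 0.94, -0.44, -0.51 and -0.52, with standard errors of 1.06, 0.66, 0.52, 0.43 and 0.39. In a fit on leaf and panicle libraries only, the log2 fold change of Os11g0125900 was 0.85 (edgeR, adjusted p = 0.0291), which missed only the 2-fold minimum. That of Os02g0616100 turned on single libraries: it was 2.23, 0.09, 0.71 and 2.64 without leaf 1, leaf 2, panicle 1 and panicle 2, and not called in any of these fits.

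**Figure D3:**
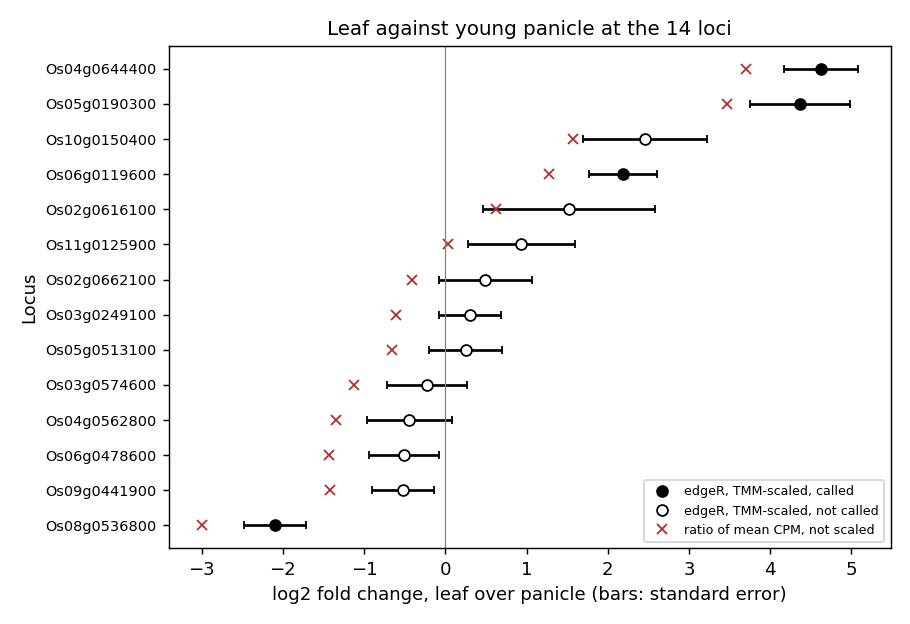
Log2 fold change of leaf over panicle (x axis) for the 14 loci (y axis), from edgeR with TMM scaling as circles with bars of 1 standard error, filled where the locus was called, and as the ratio of mean CPM without scaling as crosses. The crosses lie to the left of the circles by about 0.91, and the called loci keep their side of 0 under both.

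Libraries of the same tissue lay further apart at the members than at the 8651 loci at 10 CPM or more in leaf and panicle. The higher leaf library exceeded the lower by a median of 1.48 times over the 14 members and by 1.197 times over the 8651 loci at 10 CPM or more in leaf and panicle. In panicle the medians were 1.53 and 1.17 times. A gap of 2-fold or more was found at 3 of 14 members in leaf and at 3 of 14 in panicle, against 2.06% of the 8651 loci in either tissue. Both gaps were that wide in Os02g0616100 (4.36-fold in leaf and 3.59-fold in panicle) and in Os05g0190300 (2.06-fold and 2.24-fold). In leaf Os02g0662100 was the other, with 2.38-fold, and in panicle Os10g0150400, with 4.68-fold. The library labelled 2 was the higher one in both tissues at 7 of the 14 members and at 18.9% of the 8651 loci. Every leaf and panicle value rested on 202 or more counts, although reads that span bins are counted more than once. The part of counting error in these gaps was not tested. The median of mean CPM over leaf and panicle was 40.5 for the members and 52.3 for the 8651 loci. No set matched for level was compared. The median standard error of the log2 fold change was 0.48 over the members and 0.33 over the 8651 loci.

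**Figure D4:**
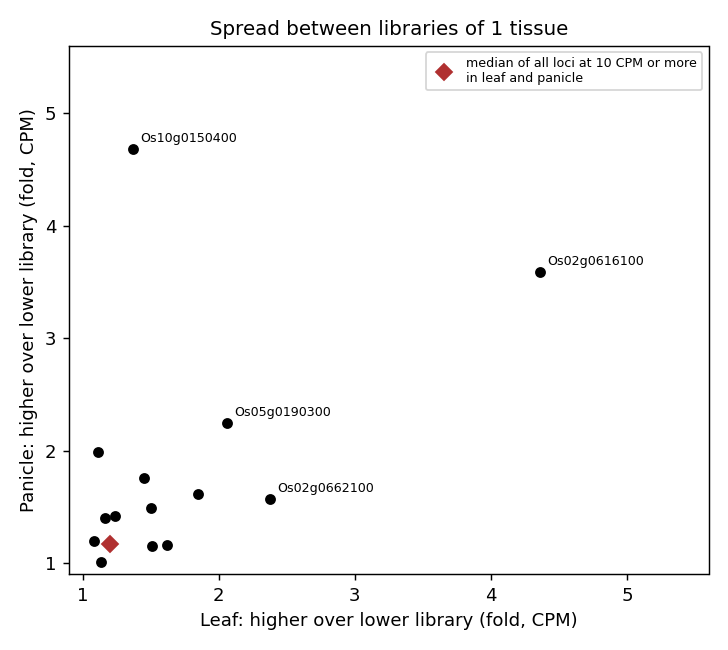
Ratio of the higher to the lower library in leaf (x axis) and in panicle (y axis) for the 14 loci, from CPM, with the median over the 8651 loci at 10 CPM or more in both tissues as a diamond. The named loci passed 2-fold in at least 1 tissue, and Os02g0616100 was wide apart in both.

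The exon bins within a locus were not used by the rule. Of the 14 members, 2 had 1 bin (14.3%) and 12 had 2 to 10. Among all loci 29.1% had 1 bin, and among the 8651 loci at 10 CPM or more in leaf and panicle 3.72%. The median was 3 bins in the members and 8 in those 8651 loci. The 12 members with several bins held 56 bins, of which 52 had counts in all 4 leaf and panicle libraries. The counts in root and seed were spread over 50 of the 56. In Os08g0536800 the 37 counts of root and seed touched all 9 bins, and in Os11g0125900 the 31 counts touched all 8. In Os02g0616100 all 8 counts were in seed 2 and fell on bins 4 and 5, the bins that also held most of its counts in leaf.

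No difference in exon usage between leaf and panicle was called at a member by edgeR's diffSpliceDGE, which compares each bin's change with that of its locus. None of the 12 members tested was called, against 0.227% of 18512 loci, and none had an unadjusted p under 0.05. The F test called none, with no unadjusted p under 0.05, and voom with diffSplice called none, with 1 unadjusted p under 0.05. That member was Os06g0478600. Its bin 1 of 3 held 12.1% and 9.36% of its counts in leaf and 5.31% and 4.13% in panicle, and its bin 2 held 85.2% and 89.4% in leaf and 94.0% and 95.1% in panicle. The tissues did not overlap in either bin. Among the 56 bins of the 12 members, 15 had no overlap. The share over all bins was not computed, so lack of overlap is not read here as a tissue difference. Bins 1 and 2 held nearly all counts of this locus, so their shares mirror each other. The log2 change in usage of bin 1 was 1.14 (edgeR, unadjusted p = 0.0925, adjusted p = 1). Several bins of a member are not independent, since they share reads.

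The widest difference in bin use was between the libraries of panicle, in Os02g0616100. In panicle 2, bins 2 and 3 of 8 held 81 and 143 of 772 counts, or 10.5% (95% exact Clopper-Pearson interval 8.42% to 12.9%) and 18.5% (15.8% to 21.4%). In panicle 1 they held 0 and 1 of 263 counts, where 0 allows up to 1.14% as 3 counts, or 1.39% by the exact interval. In leaf neither bin passed 1%, with 0.510% and 0.237% in bin 2 and 0.765% and 0.527% in bin 3. Bins 4 and 5 together held most of the counts in each leaf and panicle library. Bin 5 had 44.1% and 53.8% in leaf and 55.5% in panicle 1, but 19.7% in panicle 2. Bin 4 had 41.8% and 38.0% in leaf and 37.3% and 32.9% in panicle. The mean over both panicle libraries of this locus therefore averages unlike profiles. The intervals take counts as independent, although reads that span bins are counted more than once, so they may be too narrow.

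Other members ranged from like profiles to libraries of 1 tissue that stood apart. The 3 bins of Os06g0119600 each held between 27.0% and 38.9% in all 4 libraries. Bin 1 of Os10g0150400 held 79.4% and 78.8% in leaf and 82.6% and 87.2% in panicle. In Os09g0441900 the last of 10 bins held 27.6% and 49.0% in leaf and 39.2% and 52.5% in panicle, so the libraries of 1 tissue were further apart than the tissues. The leaf libraries were also apart in bin 1 of Os03g0574600, with 54.5% and 72.1%, and in bin 8 of Os08g0536800, with 9.25% and 17.0%. A bin's share can shift with splicing or with another start or end of the transcript, and bin counts do not separate these.

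**Figure D5:**
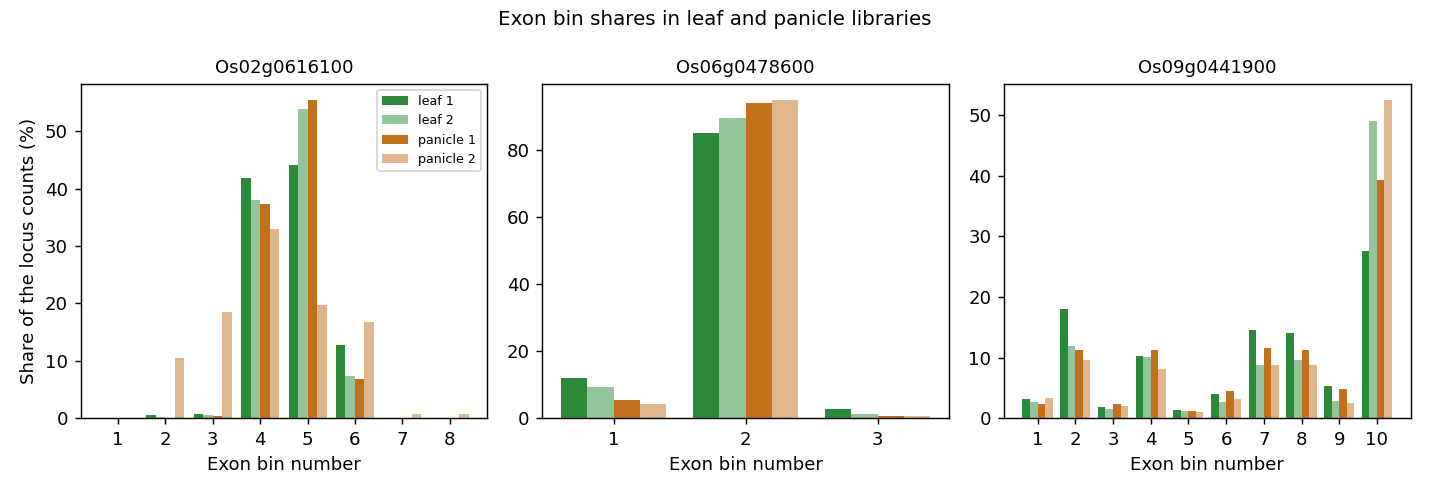
Share of a locus's counts in each exon bin (y axis, percent) by bin number (x axis) in the leaf and panicle libraries, for 3 members. In Os02g0616100 bins 2 and 3 stand out in panicle 2, in Os06g0478600 bin 1 is higher in both leaf libraries, and in Os09g0441900 the last bin varies within each tissue.

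By their locus IDs the members came from 9 of the 12 chromosomes, with 2 each on chromosomes 2, 3, 4, 5 and 6, 1 each on 8, 9, 10 and 11, and none on 1, 7 and 12. No member stood next to another in the order of the tables. Of the 28 neighbouring loci, 10 were under 2 CPM in every library (35.7%, against 38.3% of all loci) and 5 were at 10 CPM or more in every library (17.9%, against 18.0%). On both sides of Os10g0150400 the neighbours had a similar profile. Os10g0150300 had 74.9 and 116 CPM in leaf, 9.79 and 53.7 CPM in panicle, no count in root and 0.168 and 0.250 CPM in seed. Os10g0150600 had 274 and 233 CPM in leaf, 14.3 and 37.1 CPM in panicle, 0.287 CPM in root and 2.35 and 0.0834 CPM in seed. The first missed the rule in panicle 1 and the second in seed 1. In all 3 loci panicle 2 was above panicle 1, as at 12 of the 14 members and at 40.6% of the 8651 loci. Leaf 2 was above leaf 1 in Os10g0150400 and Os10g0150300 but below it in Os10g0150600. Os05g0190500, next to Os05g0190300, had 124 and 214 CPM in leaf, 9.53 and 1.797 CPM in panicle and no count in root or seed, and so shared the leaf level but not the order of the panicle libraries. These 2 neighbours, Os10g0150600 and Os05g0190500, were picked for their values. Reads of near-identical copies or of overlapping loci can be split between loci, and how far that holds for these neighbours was not tested.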

How the data were processed

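Per the submitters' processing notes, HTSeq, Cufflinks, SAMtools 1.2, TopHat2 2.0.4, Bowtie2, and bcl2fastq 1.8.4 were used with build IRGSP-1.0, with no role given for each; per the labels, mRNA was purified with the TruSeq RNA kit. The strand setting is not given in the sources used here, so reads of a locus and an antisense partner cannot be told apart. The deposited values are raw counts per exon bin, 178317 bins of 37858 loci in each of 7 libraries. The 5 rows that name no gene (12.2% to 15.8% of counts) were left out.

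Counts were summed per locus. Library totals ran from 11989260 to 49312943 counts, so that 2 CPM is 24.0 to 98.6 counts. Levels were tested with edgeR 4.0.16 (R 4.3.3): filterByExpr with a minimum count of 10 in 1 library, TMM factors (0.781 to 1.51), glmQLFit and glmQLFTest on 4 tissue means with 3 residual degrees of freedom. Standard errors are the size of the log2 change divided by the root of the F statistic. Exon usage was tested with diffSpliceDGE on 117658 bins, with loci called at an adjusted Simes p under 0.05. Scripts were tested on simulated data. Alternatives included DESeq2 1.42.0 and voom with diffSplice in limma 3.58.1.

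The members, tests and naming rule were chosen with earlier results of these data known. The rule named the 6 members of highest CPM, called members of largest change (2 per direction), members at the limits and the 3 of closest means, 11 members in all; the other 3 are named so that every member is accounted for, and Os06g0119600 also as 1 of 4 called loci. No member met the parts of the rule for exon usage or for no count in root and seed. Of all locus IDs, 1 was matched in the RefSeq table for ASM3414082v1.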

Additional observations from a re-analysis of the deposited data

How the results depend on the processing

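The number of loci meeting the rule moved from 14 to 60 at 5 CPM and to 5 at 20 CPM in leaf and panicle, to 7 and 34 at limits of 1 and 4 CPM in root and seed, and to 28 with the largest bin count. With 1 library left out it ran from 15 to 57, the highest without root and with 31 without seed 1, since fewer limits then apply. Loci called for level ran from 2 to 5 of the members and from 3481 to 10386 of all loci with 1 library left out (4 and 8040 with all), the 2 being without leaf 2. Loci called for usage numbered 42, 69 with voom and 6 to 66 with 1 library left out (7, 8, 10 and 6 without leaf 1, leaf 2, panicle 1 and panicle 2), and none was a member under any alternative run. Over 196 recomputed log2 fold changes of members, 174 kept direction and call, 9 gained a call, 5 lost it and 8 reversed. The reversed values were -0.41, -0.60 and -0.65 for Os02g0662100, Os03g0249100 and Os05g0513100 without scaling factors, a setting chosen after the data were examined. They were -0.27, -0.02 and -0.27 without leaf 2, and -0.13 and -0.23 for Os03g0249100 and Os05g0513100 without panicle 1. With 1 library left out the values of these 3 loci reached up to 0.99, 0.57 and 0.63. None of the reversed values was called, and the cause was not tested. Os09g0441900 and Os06g0478600 gained a call without scaling factors. With the replicate number as a block, 5 members and 8739 loci were called for level, with Os10g0150400 added (log2 fold change 2.72, edgeR, adjusted p = 0.0258), and 0 members and 53 loci for usage. Deviations of same-numbered libraries correlated across loci at r = 0.14 for leaf and panicle, 0.22 for leaf and seed and 0.04 for panicle and seed, and the labels give no shared origin, so the numbers were not taken as pairs.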
